A study of Mus musculus with 14 samples.

Results

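The regions described here are stretches of the mouse genome that carried H3K27me3 far from any protein-coding gene. Overlapping or adjoining peaks of the 9 cerebellar libraries of the age series were joined, and 39220 regions on GRCm38 (mm10) resulted. A region was taken as a distal intergenic member when 2 or more of the 9 libraries had a peak in it, when it lay outside every protein-coding gene body and when its edge was 50 kb or more from the nearest protein-coding transcription start site (TSS). This selection left 3726 members, 22.1% of the 16829 regions with a peak in 2 or more libraries. A further 7757 regions met both distance criteria with a peak in 1 library only and were not counted as members. Presence of a peak in the same 9 libraries chose the members, so all values of the members on presence, on coverage by stage and on the number of libraries below are descriptions and carry no test.

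The libraries came from ChIP-seq, that is immunoprecipitation of chromatin carrying H3K27me3 followed by sequencing of its DNA, in cerebellum of C57BL/6NCrl mice. The study's results name the tissue as cerebellar cortex, and its methods as cerebellum. There were 3 libraries each of mice aged 7 days (P7), 14 days (P14) and 60 days (P60). Per the study's methods, a P60 library came from 1 mouse and the younger libraries came from pools, larger at P7 than at P14, and both sexes were used. Pool size and stage therefore cannot be told apart. In bulk tissue neither can the number of cells of a type that carry the mark and its level per cell. The 9 lists held 6905 to 15600 peaks over 1.48 to 15.2 Mb, and the number of reads behind them is unknown. Libraries P60 replicate 1 and P60 replicate 2 stood apart by narrow peaks, with medians of 134 and 149 bp against 269 to 751 bp in the other 7 libraries. Promoters of granule neuron markers, the genes of the most abundant neuron of this tissue, were marked in 0 to 3 of 5 cases per library, and Zic1 and Gabra6 were unmarked in all 9. Promoters of the other 6 cell type lists of 5 genes each were marked in 0 to 4 cases.

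H3K27me3 is laid down by Polycomb repressive complex 2, whose catalytic subunit is Ezh1 or Ezh2, and it is best known at the CpG-rich promoters of silent developmental genes. It also occurs away from promoters, at silent enhancers and across gene-poor stretches around transcription factor genes. The mark is likewise found in parts of the genome made of repeated sequence, where short reads may match several places.

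The 6 stretches printed here are the 200 bases with the most CpGs in the 2 widest members present in all 9 libraries, the 2 widest lost between P7 and P60 and the 2 widest gained. They are single examples and do not stand for the base composition or repetition of the 3 kinds. Over all members, those lost held more CpGs per kb than those present in all 9 libraries, the reverse of the order in these windows. The median density of members in all 9 libraries was 7.48 CpGs per kb, below the median of members found in any smaller number of libraries. Each stretch is read from the plus strand of GRCm38, and capitals mark CpG dinucleotides.

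Kept, nearest TSS Esp38, chr17:39845690-39845889: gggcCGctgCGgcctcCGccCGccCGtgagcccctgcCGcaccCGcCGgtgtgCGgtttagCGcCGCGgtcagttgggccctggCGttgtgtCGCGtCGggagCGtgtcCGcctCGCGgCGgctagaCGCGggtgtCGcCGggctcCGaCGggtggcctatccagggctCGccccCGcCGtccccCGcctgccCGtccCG
Kept, nearest TSS BC107364, chr3:96373807-96374006: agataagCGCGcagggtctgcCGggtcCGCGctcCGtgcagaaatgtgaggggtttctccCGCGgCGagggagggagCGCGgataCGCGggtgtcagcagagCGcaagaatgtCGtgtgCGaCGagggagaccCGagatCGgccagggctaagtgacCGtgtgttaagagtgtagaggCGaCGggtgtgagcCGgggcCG
Lost, nearest TSS Nfe2l3, chr6:51173781-51173980: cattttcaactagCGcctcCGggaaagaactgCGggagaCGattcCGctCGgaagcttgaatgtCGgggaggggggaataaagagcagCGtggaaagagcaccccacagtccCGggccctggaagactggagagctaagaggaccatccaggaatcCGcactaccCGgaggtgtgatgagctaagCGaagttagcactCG
Lost, nearest TSS Vrk1, chr12:106478457-106478656: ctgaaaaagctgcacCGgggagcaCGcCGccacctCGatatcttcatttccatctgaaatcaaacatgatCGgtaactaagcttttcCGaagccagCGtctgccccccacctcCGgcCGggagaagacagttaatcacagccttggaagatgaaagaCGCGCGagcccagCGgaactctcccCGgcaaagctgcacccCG
Gained, nearest TSS Fign, chr2:63701934-63702133: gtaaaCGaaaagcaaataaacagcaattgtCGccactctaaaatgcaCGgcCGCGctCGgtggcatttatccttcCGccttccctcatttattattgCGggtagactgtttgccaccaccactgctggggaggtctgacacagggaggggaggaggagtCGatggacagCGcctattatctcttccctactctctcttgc
Gained, nearest TSS Lhx8, chr3:154422518-154422717: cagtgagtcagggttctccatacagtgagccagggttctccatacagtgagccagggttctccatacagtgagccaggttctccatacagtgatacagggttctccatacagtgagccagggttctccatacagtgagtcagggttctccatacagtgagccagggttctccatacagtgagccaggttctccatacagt

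The CpG count of these windows was 33 in the Esp38 region, 24 in the BC107364 region, 13 in the Nfe2l3 region, 15 in the Vrk1 region, 10 in the Fign region and 0 in the Lhx8 region. The Lhx8 window was a short unit written over and over: shifted by 87 bases it matched itself at 82.3% of positions, against 31.5% to 42.1% at the best shift of the other 5 windows.

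Members were narrow and moderately CpG-rich. Their median width was 595 bp (interquartile range 302 to 1065 bp), against 1443 bp for the 5591 promoter regions, 695.5 bp for the 3920 intergenic regions nearer to a TSS and 603.5 bp for the 3592 gene body regions found in 2 or more libraries. The widest member spanned 5764 bp. Together they held 2.89 Mb, or 0.274% of the 1054 Mb of sequence that met both distance criteria. Their sequence held 18.4 CpGs per kb, which compares with 6.38 per kb in all distal sequence and 43.5 per kb in the promoter regions. G and C made up 49.7% of member bases and 39.8% of distal bases. These are values of a fixed set of regions, given without a test.

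The contrast between distal and promoter peaks was tested within each library, over all peaks of that library in the 2 position classes and not over the members. Distal peaks were narrower than promoter peaks (peaks within 3 kb of a TSS) in 9 of 9 libraries. The distal median was 320 ± 148 bp (SD, n = 9) and the promoter median 651 ± 349 bp. The mean difference was -330.5 bp (exact sign-flip permutation over 9 libraries, two-sided p = 0.00391, the smallest it can give, adjusted p = 0.00781 over 4 contrasts). Distal peaks also held fewer CpGs, with 12.7 to 20.4 per kb against 41.6 to 65.8 per kb at promoters, and no library's distal value reached a promoter value. The mean difference of -32.6 CpGs per kb gave the same exact permutation p, 0.00391. Fold enrichment ran the other way. The median distal peak stood at the 56.1 ± 4.57 percentile (SD, n = 9) of its library's fold enrichments and the median promoter peak at 40.9 ± 7.25. This difference of 15.2 percentile points was positive in 7 of 9 libraries (exact permutation p = 0.0156, adjusted p = 0.0208). It was not past the threshold without the 2 narrow-peaked P60 libraries (11.8 points, exact permutation, adjusted p = 0.0833) or among peaks of 300 bp or more (8.81 points, adjusted p = 0.0625).

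**Figure D1:**
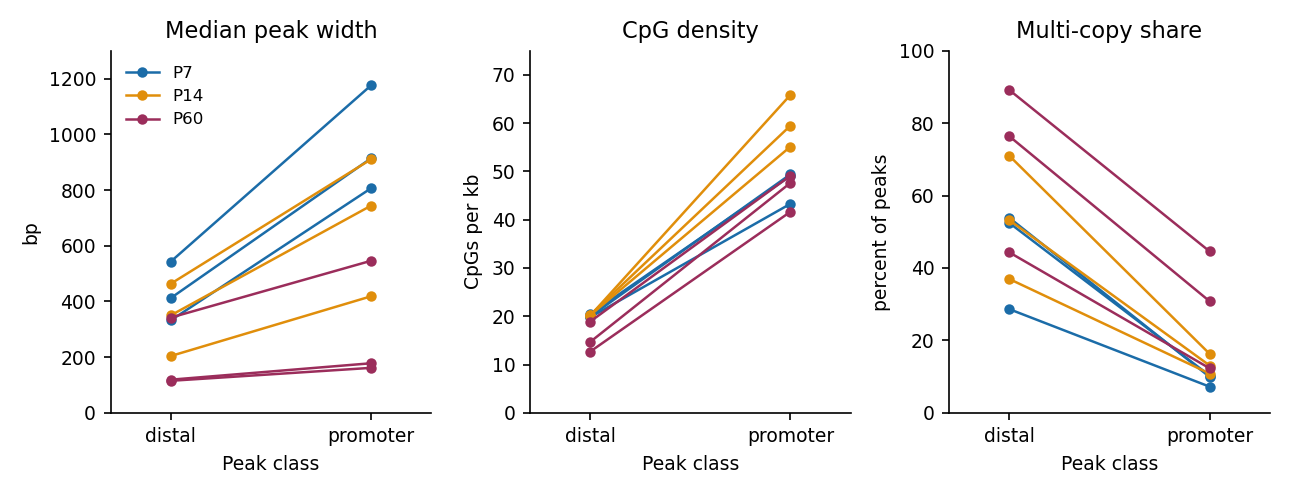
Median peak width in bp, CpGs per kb and percent of peaks in multi-copy sequence (vertical axes) for the distal and the promoter peaks of each of the 9 libraries, coloured by stage, with a line joining both classes of a library. Every line rises from distal to promoter for width and CpG density and falls for the multi-copy share.

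Members differed widely in how often their sequence recurs in the genome. To measure this, 5 words of 31 bases were taken at even spacing from each region and every exact match on either strand of the assembled chromosomes was counted. A region was called multi-copy where 3 or more of the 5 words occurred elsewhere. This measure was added after the data had been seen. It uses no peak value, and it misses copies that the assembly lacks. By it 2034 members (54.6%) were multi-copy and 1692 were single-copy, and in 28.4% of members the median word had 10 or more copies. Of 10495 windows of 595 bp set every 100 kb in distal sequence, 23.0% were multi-copy. Of the promoter regions, 15.4% were, against 52.9% of the intergenic regions nearer to a TSS and 51.1% of the gene body regions. The share in members was thus close to that in other regions away from promoters.

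In every library a larger share of distal than of promoter peaks lay in multi-copy regions. The shares were 56.2% ± 19.4 (SD, n = 9) and 17.3% ± 12.3, a difference of 39.0 percentage points that ranged from 21.4 to 54.7 (exact sign-flip permutation p = 0.00391). Among distal peaks the multi-copy share was 28.6%, 52.5% and 53.9% in the P7 libraries (replicates 1, 2 and 3 in this order, here and below), 71%, 53.2% and 37.0% at P14, and 89.2%, 76.4% and 44.3% at P60. The stages overlapped and did not differ beyond the spread between libraries (exact permutation p = 0.350). Single-copy members were wider, with a median of 928.5 bp against 390.0 bp for multi-copy members. They held 21.1 CpGs per kb against 14, and 16.7% against 51.3% of their bases were masked as interspersed or simple repeats in the assembly.

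The presence of single- and multi-copy members is given by library. Of the 1692 single-copy members, 70.9%, 49.7% and 36.4% had a peak in the P7 libraries, 31.1%, 60.9% and 69.1% in the P14 libraries and 23.3%, 20.04% and 34.4% in the P60 libraries. Each P60 value was below each P7 value. Of the 2034 multi-copy members, 33.8%, 40.9% and 33.9% had a peak at P7, 48.2%, 51.9% and 38.6% at P14, and 67.7%, 45.8% and 26.8% at P60. There the highest and the lowest of the 9 values both came from P60. Library P60 replicate 1 had a peak in 67.7% of multi-copy and 23.3% of single-copy members, whereas P7 replicate 1 had 33.8% and 70.9%.

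**Figure D2:**
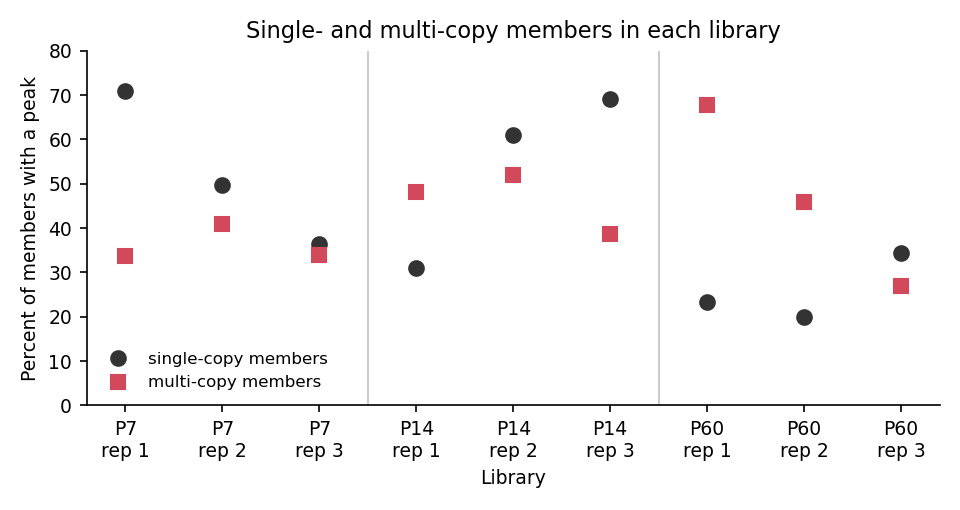
Percent of the 1692 single-copy members (circles) and of the 2034 multi-copy members (squares) that had a peak in each of the 9 libraries. Multi-copy members lead in P14 replicate 1, P60 replicate 1 and P60 replicate 2, and single-copy members in the other 6 libraries.

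Distal sequence took a larger share of the marked bases at the later stages. Here all distal peaks of a library entered, whether or not they fell in a member, so the share does not rest on how members were chosen. Distal sequence held 13.7%, 12.7% and 12.1% of the bases under peaks at P7, 18.5%, 17.7% and 17.2% at P14, and 29.9%, 24.2% and 17.4% at P60. The 3 P7 values lay below all others, while P60 replicate 3 lay among the P14 values. Stage means were 12.8% ± 0.805, 17.8% ± 0.664 and 23.8% ± 6.26 (SD, n = 3). The stages differed (exact permutation over all arrangements of the libraries, p = 0.0107, adjusted p = 0.0321 over 3 results), with 11.0 percentage points more at P60 than at P7. An exact test of each pair of stages alone cannot go below p = 0.10. By number, distal peaks made up 18.6%, 18.5% and 17.3% of peaks at P7, 23.7%, 23.3% and 22.0% at P14, and 34.4%, 27% and 21.0% at P60 (exact permutation p = 0.0679, adjusted p = 0.102). This share passed the threshold without P60 replicate 3 (a difference of 12.6 points, exact permutation, adjusted p = 0.00536). Without the 2 narrow-peaked P60 libraries the P60 to P7 difference in covered length was 4.60 points. This leaves P60 replicate 3 alone at P60, so no test is given. In single-copy regions alone the difference was 6.83 points, and the test over the 3 stages missed the threshold (exact permutation, adjusted p = 0.0857). The test of covered length also missed the threshold when any of the P7 or P14 libraries was left out, with exact adjusted p up to 0.171.

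**Figure D3:**
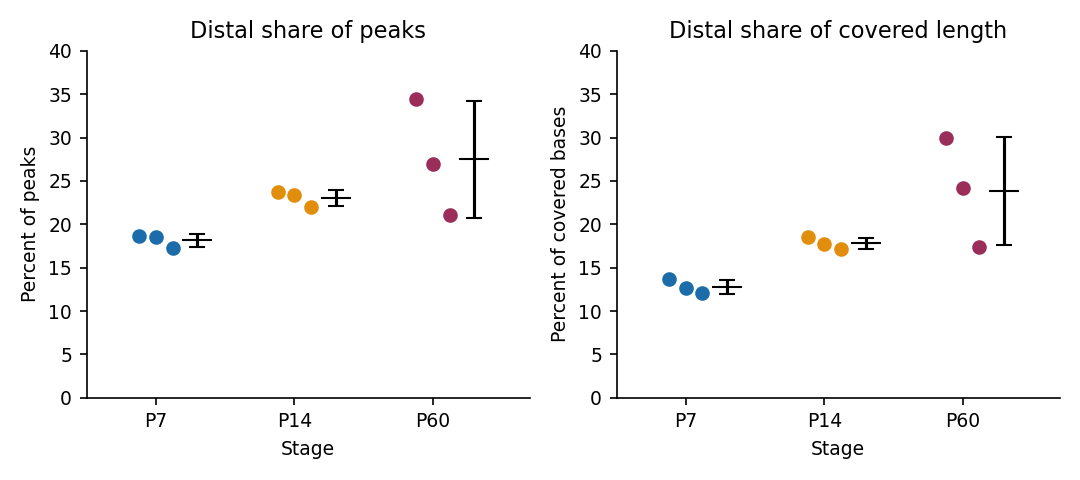
Percent of peaks (left) and percent of covered bases (right) in distal sequence, by stage. Each point is 1 of 3 libraries, and the bar beside them shows the mean and SD, which for covered bases rises from 12.8% at P7 to 17.8% at P14 and 23.8% at P60.

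Fewer bases of the members lay under peaks at P60, as of the genome in all. The lists covered 15.2, 8.4 and 7.38 Mb at P7, 3.62, 7.79 and 9.26 Mb at P14, and 2.82, 1.48 and 3.61 Mb at P60, and the part of these totals in the coverage of single members or genes given below was not tested. Peaks covered 1591, 940.0 and 812 kb of members at P7, 537, 1116 and 1281 kb at P14, and 447, 295 and 533 kb at P60. All 3 P60 values lay below all 3 P7 values. The number of members with a peak did not separate the stages in this way: it was 1887, 1672 and 1305 at P7, 1506, 2086 and 1956 at P14, and 1773, 1270 and 1128 at P60. The median width under a peak, among members with a peak, was 639, 377.5 and 448 bp at P7, 249.5, 403.5 and 516 bp at P14, and 164, 150 and 370 bp at P60. The mean of these medians was 260 bp lower at P60 than at P7, and P60 replicate 3 lay close to the lowest P7 library.

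Most members recurred in few libraries. A peak in exactly 2 of 9 libraries was found for 1447 members (38.8%, with 31.6% of all regions in 2 or more libraries), and 299 (8.02%, with 8.6% of all regions) had one in all 9. Members just inside the distance limit lay 50036, 50050 and 50112 bp from a TSS and had peaks in 6, 3 and 2 libraries. The regions just outside lay at 49988, 49988 and 49964 bp and had peaks in 2, 7 and 9 libraries. Counting a stage as marked when 2 or more of its 3 libraries had a peak, 557 members were marked at all 3 stages (14.9%, with 17.4% of all regions), 713 at P14 alone (19.1%, with 14.2%), 487 at P7 alone (13.1%, with 17.6%) and 426 at P60 alone (11.4%, with 8.44%). A further 368 were marked at P7 and P14 (9.88%, with 18.6%), 167 at P14 and P60 (4.48%, with 3.36%), 105 at P7 and P60 (2.82%, with 1.93%), and 903 at no stage (24.2%, with 18.5%). Members marked at P7 and P14 had a median width of 1397.5 bp and 21.5% of them were multi-copy. Those marked at P60 alone had a median width of 227 bp, and 85.9% of them were multi-copy. The narrow-peaked P60 replicates 1 and 2 were enough to mark this stage. Of their distal peaks 89.2% and 76.4% were multi-copy, against 44.3% in P60 replicate 3.

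**Figure D4:**
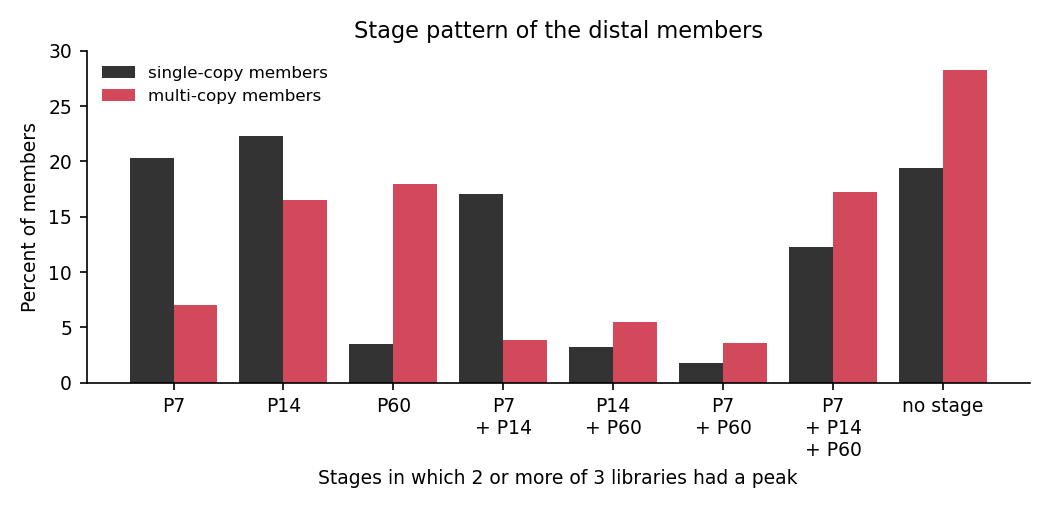
Percent of single-copy (dark) and of multi-copy (red) members by the stages at which 2 or more of 3 libraries had a peak. Among single-copy members 3.55% were marked at P60 alone and 17.1% at P7 and P14, against 18% and 3.88% of multi-copy members. The 2 narrow-peaked P60 libraries were enough to mark P60.

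A member was called lost between a pair of stages when all 3 libraries of the first and none of the second had a peak, and gained in the opposite case. Between P7 and P60, 214 members were lost (5.74%), and 14.1% of all regions with a peak in 2 or more libraries were. Gains numbered 27 (0.725%), and 0.802% of all regions were gained. Between P7 and P14, 60 members were lost (1.61%, with 3.87% of all regions) and 100 were gained (2.68%, with 2.19% of all regions). Between P14 and P60, 172 were lost (4.62%, with 7.48% of all regions) and 32 gained (0.859%, with 0.582% of all regions). Of the single-copy members 194 were lost from P7 to P60 (11.5%, with 22.6% of all single-copy regions) and 5 gained (0.296%, with 0.479% of all single-copy regions). Among multi-copy members 20 were lost (0.983%, with 1.54% of all multi-copy regions) and 22 gained (1.08%, with 1.28% of all multi-copy regions). A call needs all 3 libraries of a stage, so leaving 1 out eases it: the share lost from P7 to P60 was 12.6% without P7 replicate 3 and 8.73% without P7 replicate 2. The share gained was 1.23% to 2.03% without any 1 of the P7 libraries, P60 replicate 1 or P60 replicate 2, and 8.51% without P60 replicate 3. The balance of losses and gains turned in 3 cases with 1 library left out. Without P60 replicate 3, gains exceeded losses both from P7 to P60 (8.51% against 7.79%) and from P14 to P60 (7.65% against 6.73%). Without P7 replicate 3, losses exceeded gains from P7 to P14 (5.61% against 3.45%). Losses also exceeded gains from P7 to P14 with only peaks of 300 bp or more (2.20% against 1.74%).

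The widest member lost between P7 and P60 lay 256.2 kb from the TSS of Nfe2l3, a basic leucine zipper transcription factor (chr6:51172469-51176470, 4002 bp). Peaks covered 4002, 1476 and 2086 bp of it at P7, 0, 382 and 529 bp at P14, and 0 bp in each P60 library. Its coverage was highest in the 3 P7 libraries. A pair of lost members lay in the gene-poor stretch beside Vrk1, which encodes a nuclear kinase. The first (chr12:106477491-106481387, 447 kb from the TSS) had 3880, 1558 and 630 bp under peaks at P7, 0, 820 and 1119 bp at P14 and none at P60. The second (chr12:106172243-106175852, 142 kb from the TSS) had 3600, 2949 and 2539 bp at P7, 0, 2714 and 1728 bp at P14 and none at P60. Both were bare in P14 replicate 1 and marked in the other P14 libraries. Beside Msx1, a homeobox transcription factor gene, a member at 67.5 kb (chr5:37892101-37895653) had 3553, 2589 and 1578 bp at P7, 385, 1340 and 1879 bp at P14 and none at P60. A member 56.8 kb from Nrf1 (chr6:30172947-30176466), overlapping the annotated long non-coding RNA Rncr4, was the most CpG-rich of these 5, with 65.6 CpGs per kb. It had 3342, 1976 and 2697 bp under peaks at P7, 1304, 2079 and 3184 bp at P14, and none at P60. Here P14 replicates 2 and 3 lay within the range of the P7 libraries.

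A member 66.1 kb from Sox4, a transcription factor of immature neurons (chr13:28884167-28887638), was among the 3 widest lost between P14 and P60, with the Msx1 and Nrf1 regions. Peaks covered 1813, 1487 and 812 bp of it at P7, 99, 522 and 3063 bp at P14 and none at P60, so that both the highest and the lowest value of the younger stages came from P14. The widest lost already by P14 lay 55.5 kb from Sulf2, which encodes an enzyme that trims heparan sulfate (chr2:166211171-166213806). It had 2197, 1985 and 538 bp at P7 and none in the other 6 libraries. The next was a member 84.6 kb from Hsd17b12 that overlapped the non-coding Mir670hg (chr2:94242563-94244629), with 2067, 1925 and 542 bp at P7 and none later. The last of these lay 166 kb from Exoc5 within Otx2os1, a non-coding transcript named for its place opposite the homeobox gene Otx2 (chr14:48852129-48854148). It had 1971, 768 and 421 bp at P7 and none later. These 3 were also the widest of the 46 members with a peak in all 3 libraries of P7 and in no other library.

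Gained members were narrower than lost ones, with a median of 346 bp against 1503.5 bp. Lost members needed a peak in all P7 libraries, whose median peak widths were 485 to 751 bp. Gained members needed one in all P60 libraries, with medians of 134, 149 and 410 bp. The part of these peak widths in the contrast was not tested. The widest gained from P7 to P60 (chr2:63701934-63703394, 1461 bp) lay 395 kb from Fign, a microtubule-severing ATPase. It had no peak at P7, 0, 670 and 1347 bp under peaks at P14 and 336, 180 and 781 bp at P60. It was single-copy. The next lay 91.9 kb from Lhx8, a LIM homeobox gene (chr3:154422518-154423789), and is the tandem repeat printed above. It had 164, 0 and 1251 bp at P14 and 621, 611 and 537 bp at P60, and held no CpG over its 1272 bp. The following pair lay 109 and 89.1 kb from Gm38393 within Snhg14, the long host transcript of small nucleolar RNAs in an imprinted domain. Their words had a median of 31 and 38 copies. The first (chr7:59870038-59871292) had 100, 1175 and 0 bp at P14 and 197, 72 and 1156 bp at P60. The second (chr7:59890359-59891580) had 0, 1104 and 0 bp at P14 and 343, 71 and 1077 bp at P60. The last of the 5 widest lay 116 kb from G530012D18Rik (chr1:85458709-85459766), had words with a median of 7 copies, and had 0, 150 and 0 bp at P14 and 663, 118 and 809 bp at P60. Of the 27 members gained, 81.5% were multi-copy, against 9.35% of the 214 lost.

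Members gained between P7 and P14 were partly single-copy. The widest lay 496 kb from Vrk1 (chr12:106526816-106529334), on the same stretch as the lost pair, with none at P7, 99, 1550 and 1554 bp at P14 and 0, 240 and 1704 bp at P60. A member 60.7 kb from Bcas1, which encodes an oligodendrocyte protein (chr2:170286609-170288999), had 376, 1596 and 561 bp at P14 and 0, 0 and 966 bp at P60. A multi-copy member 225 kb from AI593442 (chr9:52904519-52906559) had 112, 1239 and 873 bp at P14 and 204, 0 and 633 bp at P60. The first of these was single-copy, as was the Bcas1 member, and among the P14 libraries all 3 were covered least in replicate 1. The 3 widest gained from P14 to P60 lay near Ano5, Arrdc4 and Scaf8 and spanned 918, 825 and 789 bp. Each had a peak in 1 of 3 libraries at P7 as well, so none was particular to P60.

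By a stricter rule, a peak in all 3 libraries of 1 stage and in no other library, 46 members were of P7 (1.23%, with 3.42% of all regions), 62 of P14 (1.66%, with 1.21%) and 10 of P60 (0.268%, with 0.279%). The widest of the P14 members lay near Grik3, a kainate receptor subunit, near Arhgap32 and near Sorl1. The Grik3 member (chr4:125718315-125719742) had 586, 187 and 916 bp under peaks, the Arhgap32 member (chr9:32031870-32033153) 658, 1202 and 1228 bp, and the Sorl1 member (chr9:41578938-41580123) 418, 1186 and 507 bp. The Arhgap32 member held 134 CpGs per kb, above every other member named here. The widest of the P60 members lay near Eef2kmt (787 bp), Camk2n1 (709 bp) and Lhcgr (433 bp). Of these the Eef2kmt and Lhcgr members were multi-copy.

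**Figure D5:**
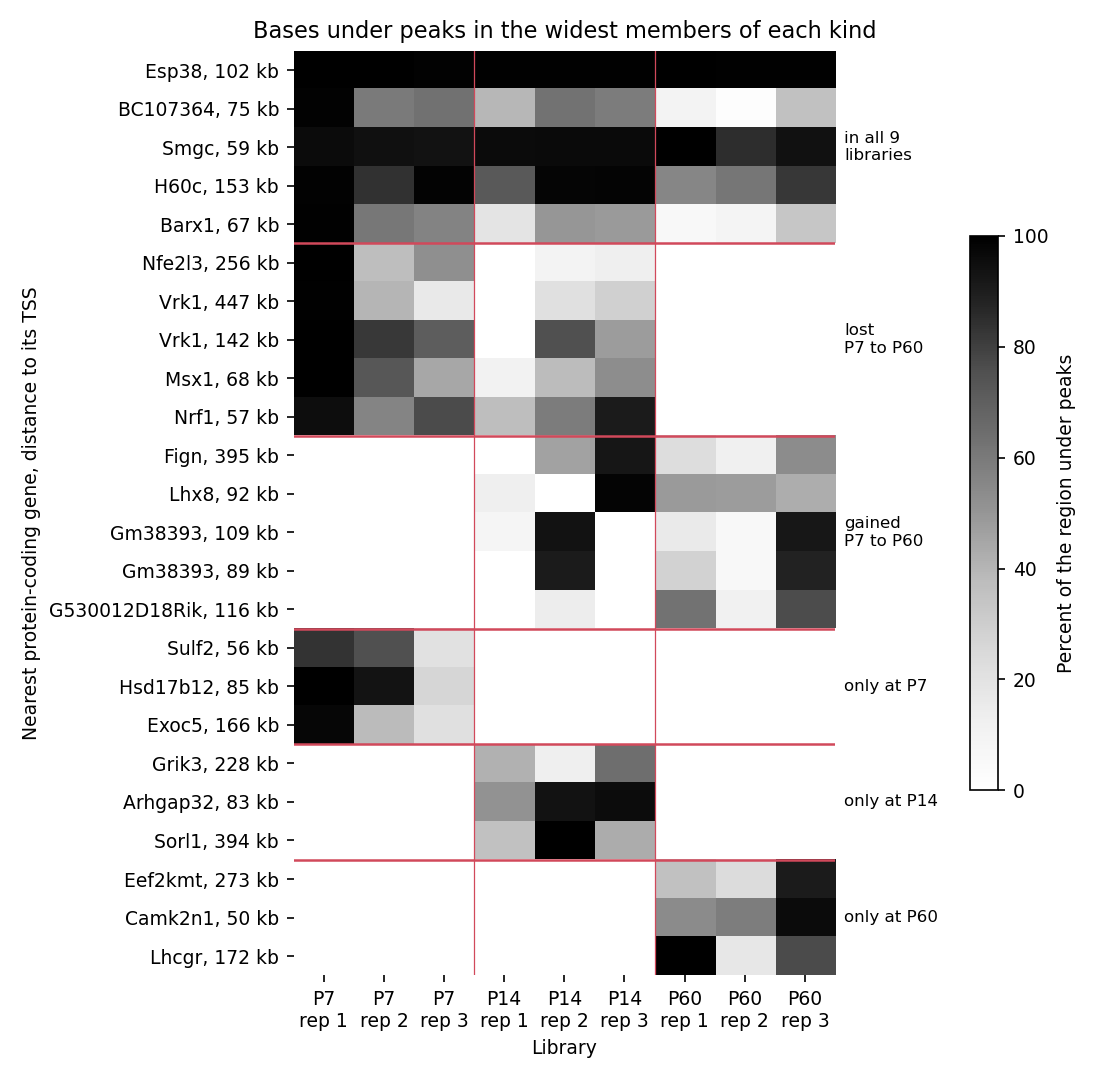
Percent of each region under peaks in the 9 libraries (columns) for the widest members of each kind (lines, named by nearest gene and distance to its TSS), grouped by how their presence changed. Shading runs from 0 (white) to 100% (black), and the lost members are white in all P60 libraries while the Esp38 and Smgc members are dark in all 9.

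Of the 299 members found in all 9 libraries, 199 (66.6%) were multi-copy, and their median CpG density was 7.48 per kb. In members found in 2 to 8 libraries, by number of libraries, the multi-copy share ran from 43.4% to 60.2% and the median CpG density from 11.7 to 19.4 per kb. The widest, 102 kb from Esp38 (chr17:39843038-39848801), overlapped an annotated ribosomal RNA gene, CT010467.1, and 3 non-coding transcripts. Peaks covered 5710 to 5762 bp of its 5764 bp in every library, at a fold enrichment of no more than 1.81. It held 102 CpGs per kb and its words had a median of 1 copy in the assembled chromosomes, which hold few of the ribosomal RNA gene repeats. The member 58.5 kb from Smgc (chr15:91906463-91910399), inside the transcript Muc19 of a large mucin, was covered over 3352 to 3927 of 3937 bp, and its words had a median of 7 copies. The member 153 kb from H60c (chr10:3111360-3115112) was masked as repeat over 98.3% of its bases, its words had a median of 10 copies, and 2082 to 3722 of 3753 bp were covered. At Esp38 the stages overlapped, and at Smgc the P60 libraries held both the highest and the lowest value, whereas at H60c each P60 value (2082, 2301 and 3093 bp) lay below each P7 value (3722, 3145 and 3695 bp).

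The other 2 of the 5 widest narrowed with age. The member 74.8 kb from BC107364 (chr3:96373456-96377531), which was multi-copy and overlaps the U1 small nuclear RNA gene Rnu1b2, had 4032, 2443 and 2572 bp under peaks at P7, 1605, 2555 and 2413 bp at P14 and 400, 67 and 1450 bp at P60. The member 66.7 kb from Barx1, a homeobox gene (chr13:48729655-48733268), was single-copy and had 3594, 2202 and 2044 bp at P7, 689, 1802 and 1757 bp at P14 and 200, 327 and 1205 bp at P60. In both, every P60 value lay below every P7 value. The member farthest from any TSS was also present in all 9 libraries: it lay 2140 kb from Cdh20 (chr1:102628077-102628451), spanned 375 bp, and reached a fold enrichment of 15.9 at P7, 13.8 at P14 and 20.8 at P60. The next farthest lay 2073 kb from Tenm3 and 2008 kb from Pcdh7, with a peak in 2 libraries each.

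The last 2 of the 10 widest members lay beside Bmp7 and Tex29. Of the member 149 kb from Bmp7, a secreted growth factor of the BMP family (chr2:172786638-172790700, 4063 bp), peaks covered 4063, 2756 and 2293 bp at P7, 924, 2326 and 2193 bp at P14 and 172, 0 and 0 bp at P60. Its coverage was lower in each P60 library than in any other. A member 69.8 kb from Tex29 (chr8:11911847-11915852, 4006 bp) had 2550, 627 and 220 bp at P7, 0, 150 and 2168 bp at P14 and 0, 174 and 821 bp at P60, with no order by stage.

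Members bordered unassembled sequence more often than distal sequence as a whole. Within 50 kb of an assembly gap of 10 kb or more lay 344 members (9.23%), 29.1% of those present in all 9 libraries and 1 of the 214 lost from P7 to P60. Such sequence made up 0.789% of all distal bases. Of multi-copy members 14.1% lay so near to a gap, of single-copy members 3.43%, and of all regions with a peak in 2 or more libraries 3.65%. Many members also lay close together, although no other set of regions was compared. Peaks were joined only where they overlapped or touched, so a stretch broken into several peaks can count as several members. When members 50 kb or less apart were joined, 2189 (58.7%) fell into 636 groups of 2 or more, and 95 groups held 5 or more. The largest group, 37 members over 196 kb beside Gm31371 and Gm15319 on chromosome 8, held 35 multi-copy members. Next came 26 members over 34.8 kb beside Ezh2, 24 over 57.3 kb beside Gm38393 and 23 over 89.8 kb beside Spin4 and Zxdb, all multi-copy. The largest groups in mostly single-copy sequence lay between Prex1 and Sulf2 (16 members, 2 multi-copy) and beside Bmp7 and Tfap2c (15 members, 1 multi-copy). These 2 groups held 30 and 36 library peaks at P7, 19 and 27 at P14, and 8 and 8 at P60, counting each member once per library.

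Members lay nearer to genes than distal sequence in general, and the farthest were short and repeated. The median distance to a TSS was 142 kb. Between 50 and 100 kb lay 34.7% of members and 20.9% of distal sequence, and beyond 1000 kb lay 1.99% of members and 6.95% of distal sequence. The median width was 677.5 bp in the nearest class and 304 bp in the farthest. Of the 74 members in the farthest class 78.4% were multi-copy and none had been lost from P7 to P60. Over that interval 1.54% of all multi-copy regions and 14.1% of all regions were lost. By chromosome, density ran from 0.627 members per Mb of distal sequence on chromosome Y and 2.41 on chromosome 14 to 6.11 on chromosome 7. Chromosome X held 315 members, with peaks in 74 to 178 of them per library. Non-coding genes or pseudogenes of any type overlapped 763 members (20.5%).

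The 3726 members shared 1590 nearest protein-coding genes. Of these, 861 were nearest to 1 member and 45 to 10 or more. The 10 genes nearest to most members were Gm31371 (35 members), Gm38393 (34), Gm21119 (31), Spin4 (27), Ezh2 (26), Gpm6a (22), Vrk1 (22), Hnf4g (20), Mki67 (18) and Obox2 (18). At Gm31371, Gm38393, Gm21119, Spin4, Ezh2, Gpm6a and Obox2 nearly all members were multi-copy. None of them was lost from P7 to P60, with 1.54% of all multi-copy regions lost. Members with a peak were on average more numerous at P60 than at P7 at these genes. These averages rested on the narrow-peaked P60 replicates 1 and 2, and in P60 replicate 3 the number was within the range of the P7 libraries at each of the 7 genes. The 26 beside Ezh2, which encodes the Polycomb methyltransferase itself, lay 56.5 to 89.5 kb from its TSS and all within 50 kb of an assembly gap. Peaks stood in 13, 18 and 15 of them at P7, 17, 16 and 9 at P14, and 26, 24 and 13 at P60. The bases covered were 6643, 13504 and 9317 at P7, 9593, 8329 and 6305 at P14, and 5391, 5231 and 7670 at P60, so that the rise in number was not one in covered length. The 22 beside Gpm6a, a neuronal membrane glycoprotein, included 14 present in all 9 libraries. Peaks covered 10541, 15326 and 13362 bp of them at P7, 14422, 14996 and 13790 bp at P14, and 12308, 11518 and 10456 bp at P60. The P60 values lay within the P7 range or just below it, and each was below each P14 value.

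At Vrk1 and at Mki67, the gene of a nuclear protein of dividing cells, members were mostly single-copy. The 22 members beside Vrk1 had 18316, 8931 and 8166 bp under peaks at P7, 2032, 12869 and 12305 bp at P14, and 1706, 659 and 3003 bp at P60. The 18 beside Mki67 had 10481, 5562 and 5326 bp at P7, 2267, 8152 and 12991 bp at P14, and 440, 191 and 1445 bp at P60. At both genes every P60 value lay below every P7 value. The 20 members beside Hnf4g, a nuclear receptor gene, were mostly single-copy by the word count (18 of 20), and 14 lay within 50 kb of an assembly gap. Peaks stood in 5, 5 and 8 of them at P7, 9, 7 and 8 at P14, and 20, 17 and 4 at P60, where P60 replicate 3 lay below all P7 libraries.

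Transcription factor genes were nearest to 307 members (8.24%) and to 5.33% of distal sequence, over 5 lists chosen with earlier results of these data known. Of these members 43 (14%) were lost from P7 to P60 and 1 was gained, while 5.0% of the other members were lost. The share lost among all regions was 14.1%, about that of these members. Their median width was 938 bp against 566 bp for the others, 21.5% against 57.6% were multi-copy, and 41 of the 203 members over 2 kb wide were among them. Among single-copy members alone, 17% of the 241 beside a listed transcription factor gene and 10.5% of the others were lost, with 22.6% of all single-copy regions. Peaks covered 238, 121 and 97.2 kb of these 307 members at P7, 40.3, 119 and 157 kb at P14, and 15.9, 14.1 and 46.1 kb at P60. The P60 and P7 libraries did not overlap, whereas P14 overlapped both.

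Homeobox genes were nearest to 123 members (3.3%, with 1.70% of distal sequence), of which 17 (13.8%) were lost and 1 gained between P7 and P60, close to the 14.1% lost among all regions. Irx3, Irx2, Irx5 and Nkx6-1 led this list with 10, 8, 7 and 7 members. The Irx genes take part in patterning the nervous system. At the 10 members of Irx3, peaks covered 8887, 811 and 1505 bp at P7, 582, 3016 and 5043 bp at P14, and 0, 0 and 2360 bp at P60, where P60 replicate 3 exceeded 2 of the P7 libraries. At the 7 members of Irx5 they covered 9488, 6954 and 4553 bp at P7, 1159, 4753 and 7271 bp at P14, and 0, 0 and 1051 bp at P60. At the 8 members of Irx2 the values were 7010, 3072 and 2147 bp at P7, 1463, 4711 and 4703 bp at P14, and 561, 486 and 1872 bp at P60. At Nkx6-1, a neural tube patterning factor, they were 7231, 3363 and 4598 bp at P7, 284, 1945 and 4503 bp at P14, and 153, 0 and 1288 bp at P60. At Irx5, Irx2 and Nkx6-1 each P60 value lay below each P7 value.

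Zinc finger and nuclear receptor genes were nearest to 94 members (2.52%, with 2.06% of distal sequence), and 20 of these (21.3%) were lost from P7 to P60. Among all regions 14.1% were lost and among all single-copy regions 22.6%, and 24.5% of these members were multi-copy. Nr2f2, Sall3, Tfap2c and Klf4 led with 16, 11, 9 and 8. Nr2f2 encodes the orphan nuclear receptor COUP-TFII, and 7 of its 16 members were lost. Peaks covered 17271, 8016 and 7384 bp of them at P7, 2353, 7008 and 8488 bp at P14, and 128, 0 and 878 bp at P60. Of the 11 members beside the zinc finger gene Sall3, 6 were lost, and 12933, 6719 and 5260 bp lay under peaks at P7, 1241, 4495 and 7860 bp at P14, and 470, 296 and 595 bp at P60. At the AP-2 factor Tfap2c 3 of 9 were lost, with 11936, 8403 and 6458 bp at P7, 2228, 4506 and 5967 bp at P14, and 370, 271 and 1089 bp at P60. At these 3 genes the highest P60 value was below the lowest P7 value. Klf4, a pluripotency factor, lost none of its 8 members, and coverage there was 3724, 331 and 810 bp at P7, 329, 4100 and 3966 bp at P14, and 208, 81 and 597 bp at P60, highest in P14 replicates 2 and 3.

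The other transcription factor lists were smaller. Lost from P7 to P60 were 14.1% of all regions, to be read beside each share here. Basic helix-loop-helix genes were nearest to 41 members, 2 of them (4.88%) lost, with Id4 (10), Hes1 (5), Olig3 (5) and Myc (4) in front. At Id4, an inhibitor of this family, coverage was 4677, 1934 and 349 bp at P7, 765, 3839 and 6258 bp at P14, and 699, 406 and 2413 bp at P60, and the stages overlapped. Forkhead, Tbx and Gata genes were nearest to 27 members, 3 of them (11.1%) lost, led by Tbx3 (9), Gata6 (3), Foxd3 (2) and Tbx5 (2). Sox genes were nearest to 22 members, 1 of them (4.55%) lost, led by Sox14 (6), Sox2 (5), Sox1 (2) and Sox11 (2). At Sox14, coverage was 7314, 2406 and 1235 bp at P7, 882, 1933 and 3480 bp at P14, and 0, 0 and 521 bp at P60.

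For the next lists too, 14.1% of all regions were lost from P7 to P60 and 0.802% gained, to be read beside each count. Secreted signals and their inhibitors were nearest to 34 members, 3 lost (8.82%), led by Bmp7 (6), Bdnf (4), Fgf18 (4) and Bmp2 (2). At the 6 members of Bmp7, peaks covered 11420, 6487 and 3622 bp at P7, 1023, 3960 and 3788 bp at P14, and 172, 0 and 285 bp at P60. Axon guidance genes were nearest to 36 members, 1 lost (2.78%), led by Plxna1 (8), Sema6d (6), Epha4 (5) and Dcc (4). Cadherin and synaptic adhesion genes were nearest to 127 members, 3.41% of members and 8.13% of distal sequence, with 4 lost (3.15%) and 1 gained. Adgrl2 (9), Cntnap5b (8), Cdh18 (6) and Slitrk1 (6) led this list. Ion channel and neurotransmitter receptor genes were nearest to 72 members, 4 lost (5.56%) and 1 gained, led by Trpm1 (8), Kcnd2 (6), Kcnn2 (5) and Grik3 (4). Of these last 2 lists 59.8% and 61.1% of members were multi-copy, against 20.3% for homeobox genes.

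Of the large clustered families, olfactory, vomeronasal and taste receptor genes were nearest to 59 members, none of them lost from P7 to P60. Of these members 11 were in all 9 libraries and 67.8% were multi-copy. Lost in that interval were 14.1% of all regions and 1.54% of all multi-copy regions. Olfr161 (14), Olfr1507 (9), Vmn1r2 (9) and Tas2r134 (4) led this list. Cytokine, defensin and other immune cluster genes were nearest to 30 members, 3 lost (10%), led by Defb33 (5), Cd109 (3), Ifngr1 (3) and Klra1 (3). The share of distal sequence nearest to these 2 families was 0.769% and 0.643%, and their share of members 1.58% and 0.805%.

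Promoters of the nearest genes were compared last. In a given library, the nearest gene's promoter was marked for 28.2% ± 11.6 (SD, n = 9) of members that had a peak there and for 23.7% ± 7.41 of members that had none. The difference was positive in 6 of 9 libraries and averaged 4.49 percentage points. It ranged from -1.96 in P14 replicate 1 to 15.0 in P7 replicate 1, and was between -0.725 and 2.97 in the P60 libraries. Since presence of a peak also chose the members, these are values without a test. Of the 1590 nearest genes, 10.6% to 35.4% had a marked promoter per library, against 7.05% to 23.8% of all genes. Peaks in the same libraries picked these genes through the members, so this too is a description. All genes beside distal sequence were not compared. The nearest promoter was marked in 1 or more libraries for 48.3% of members, for 95.9% of those beside homeobox genes and for 27.1% of those beside olfactory, vomeronasal and taste receptors. For all regions in 2 or more libraries, promoter regions included, it was 69.7%. The share of marked promoters among all genes of these lists was not compared, so these values show no link to the members.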

How the data were processed

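H3K27me3 ChIP-seq peaks of 9 cerebellar libraries, 3 each at P7, P14 and P60, were analysed as deposited. Per the labels and the study's methods, the authors trimmed single-end reads with Trimmomatic 0.38, aligned them to mm10 with STAR 2.7.2b and called broad peaks per library with MACS2 2.1. Whether reads that matched several places were kept is not stated in the paper or labels. The deposited lists give each peak a score, a ratio (fold enrichment) and −log10 p and q values. The lowest −log10 q in a list was 1.00 to 1.01. The FDR threshold in the study's methods corresponds to a −log10 q of 2, so the lists used here are looser. At a −log10 q of 2 or more the same rule gave 2012 members, against 3726 here. The deposited lists hold no read counts, so depth is unknown.

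Peaks were merged where they overlapped or touched (1 bp) and placed against the annotation of GRCm38. Promoter means within 3 kb of a protein-coding TSS. Stages were compared by an exact permutation test over 1680 arrangements of the libraries (two-sided, smallest p 0.00357), and classes within a library by exact sign flips over 512, with Benjamini-Hochberg adjustment within each family. Tests planned for the covered width of members and for nearest promoters of present against absent members used the presence that chose the members, so their values are given without a test, although they count in the adjustment. The labels do not say that the libraries of a stage were separate animals. The study's methods call them independent biological replicates, pooled from several mice at P7 and P14. The p-values measure the spread between these samples. The functions were tested on simulated data. Replicate numbers did not pair the libraries, as correlations of deviations between same-numbered libraries ran from -0.203 to 0.190.

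The members, gene lists and tests were chosen with earlier results of these data known. Regions named are the 10 widest members, the 5 widest in all 9 libraries, the 5 widest lost and the 5 widest gained between P7 and P60, the 3 widest of each between the other stages, the 3 farthest from a TSS, the 3 on each side of the distance limit and the 3 widest of each stage alone. Genes named are the 10 nearest to most members and the 4 leading genes of each list. The word count, the distance to assembly gaps and the coverage by gene were added after seeing the data. Sequences were read from GRCm38. Alternatives were stricter −log10 q limits, peak width, distance, chromosomes, equal list length, leaving out libraries and single-copy regions. The 5 peak lists of the Kdm6b-WT and Kdm6b-cKO libraries were not used by position, since 25 to 74 peaks of each ran past the ends of GRCm38 chromosomes. Python 3.11.15, numpy 2.4.6, pandas 2.3.3 and matplotlib 3.10.9 were used.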

Additional observations from a re-analysis of the deposited data

How the results depend on the processing

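No value changed sign, but without P60 replicate 3 members gained exceeded members lost from P7 to P60 (8.51% against 7.79%) and from P14 to P60 (7.65% against 6.73%), and without P7 replicate 3 members lost exceeded those gained from P7 to P14 (5.61% against 3.45%). With only peaks of 300 bp or more, members lost also exceeded those gained from P7 to P14 (2.20% against 1.74%). Of 286 values of 15 results under the alternatives, 194 kept their side of the threshold or moved little. The contrasts of distal with promoter peaks in width, CpG density and multi-copy share kept their side under all of them. The causes of the other changes were not tested. Members numbered 2012 and 824 at a −log10 q of 2 and 4, 2434 at 100 kb, 2279 with 3 or more libraries and 1692 in single-copy sequence. The test of the distal shares covers all 3 stages together, and each difference given is that of P60 from P7. For the share of peaks the test passed the threshold with peaks of 300 bp or more (5.48 points) and on autosomes (8.6). This difference was 2.91 without the 2 narrow-peaked libraries, which leaves P60 replicate 3 alone at P60, and ran from 5.87 to 12.6 leaving out 1 library. For covered length the test missed the threshold with a −log10 q of 4 (22.7), in single-copy regions (6.83) and with the replicate block (11.0, adjusted p = 0.0833, exact permutation). The difference in covered length was 4.60 without the narrow-peaked libraries and ran from 8.0 to 14.2 leaving out 1 library. The replicate block changed no other call. The fold enrichment rank missed it at 8.81 (300 bp), 11.8 (narrow-peaked left out) and 8.46 (single-copy). The nearest-promoter difference, given without a test, was 2.87 and 0.543 (−log10 q of 2 and 4), 2.91 (300 bp), 4.03 (100 kb), 2.61 (6905 peaks per list), 3.22 (narrow-peaked left out), 3.93 (3 libraries), 2.7 (peaks over 50% of a region) and 1.51 (single-copy), with 3.26 to 5.12 leaving out 1 library.

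Shares of members moved as follows. With the narrow-peaked libraries left out, loss or gain at P60 rests on P60 replicate 3 alone. Lost from P7 to P60 they were 2.31% (−log10 q of 4), 10.9% (300 bp), 9.71% (narrow-peaked left out), 9.39% (3 libraries) and 11.5% (single-copy), with 6.21% to 12.6% leaving out 1 library. Gained from P7 to P60 they were 1.33%, 0.153%, 5.78%, 1.18% and 0.296% in the same order, 1.23% at equal list length, 0.107% with peaks over 50% of a region and 0.784% to 8.51% leaving out 1 library. Lost from P7 to P14 they were 2.63% (3 libraries) and 2.48% (single-copy), with 1.67% to 5.61% leaving out 1 library. Gained from P7 to P14 they were 5.46% (−log10 q of 4), 1.74% (300 bp), 4.39% (3 libraries) and 1.45% (50% of a region), with 2.78% to 8.45% leaving out 1 library. Lost from P14 to P60 they were 9.74% (narrow-peaked left out), 7.55% (3 libraries) and 2.47% (50% of a region), with 4.82% to 14.3% leaving out 1 library. Gained from P14 to P60 they were 1.82% (−log10 q of 4), 0.153% (300 bp), 1.60% (equal list length), 2.92% (narrow-peaked left out), 1.40% (3 libraries) and 0.188% (50% of a region), with 0.897% to 7.65% leaving out 1 library. The comparison of members between Kdm6b-WT and Kdm6b-cKO was not run. Without read counts, absence of a peak cannot be told apart from low depth.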
